A study of Mus musculus with 6 samples.

Results

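The GIMAP family (GTPases of immunity-associated proteins) was examined in naïve CD4 T cells with and without the mRNA cap methyltransferase gene Rnmt. The members were the 8 genes of the deposited expression table whose mouse symbol was Gimap1, Gimap3, Gimap4, Gimap5, Gimap6, Gimap7, Gimap8 or Gimap9, of 46983 genes in the count tables. All 8 had enough reads to be tested, among 12336 tested genes. RNA depleted of ribosomal RNA was sequenced from T cells sorted from lymph nodes by a naïve T cell gate that included TCRb+, CD4+, CD44- and DAPI-, in 3 control libraries (Rnmt fl/fl CD4cre -) and 3 Rnmt cKO libraries (Rnmt fl/fl CD4cre +). All samples came from male mice on a C57B6/J background, and their age was not given in the sources used here. Both groups carried loxP sites around exon 3 of Rnmt, and only the cKO carried the Cre transgene, so any effect of Cre itself and of Rnmt loss cannot be told apart. CD4-Cre becomes active in developing thymocytes, so the gene is deleted in CD4 and CD8 lineages alike and before the cells reach the lymph node.

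GIMAP proteins are small GTP-binding proteins found mainly in lymphocytes, where they are anchored in or held near the membranes of the endoplasmic reticulum, Golgi, lysosome, mitochondria or lipid droplets. Their genes lie side by side in 1 cluster and share the AIG1 type of GTP-binding domain. They are known chiefly for keeping resting lymphocytes alive. Loss of Gimap5 in rats and mice leaves few peripheral T cells, and Gimap1 is required for mature T and B cells to persist.

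After TMM scaling, the summed level of the family differed by less than the spread between libraries, while its members did not move together. Gimap5, Gimap8 and Gimap1 fell in the cKO by 36.5%, 23.3% and 19.2%. Gimap6, Gimap9 and Gimap4 had cKO means 18.1%, 16.1% and 9.25% above control, and none of these 3 passed the test. Gimap3 was 14.2% lower without passing it, and Gimap7 varied more among control libraries than between groups.

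Libraries held 8873413 to 11277764 reads on the sense strand of genes. The share of uniquely mapped reads in no gene was 36.1% to 46.1% in control and 31.8% to 47.9% in cKO libraries, with cKO 3 lowest and cKO 1 highest. Rnmt, counted over the whole gene, was at 51.5, 58.7 and 57.9 CPM (reads per 1000000 of the library size after TMM scaling) in control and 42.0, 37.5 and 26.6 in cKO libraries (log2 fold change -0.67 ± 0.20, SE, edgeR exact test, adjusted p = 0.00035). Counts over the gene include exons outside the floxed one, so this level does not measure the deletion itself. Defining T cell genes were high in both groups. The summed level of 11 T cell receptor complex and proximal kinase genes was 4468 to 5159 CPM in control and 4498 to 5395 in cKO libraries. In bulk RNA, fewer cells of a type and less RNA per cell cannot be told apart. The libraries stand for 3 mice per group, and p-values measure the spread between them.

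The 8 members spanned 123.6 kb of chromosome 6 (mm10), from 48647234 to 48770851. Gimap8, Gimap9, Gimap4, Gimap7, Gimap1 and Gimap5 lie on the plus strand, and Gimap6 and Gimap3 on the minus strand. The bases just before the annotated start are shown for the 3 genes that fell, and for Gimap6, which had the highest fitted fold change. The sequences are RefSeq promoters of GRCm38.p6, 60 bases each, read 5′ to 3′ on the strand of the gene. Capitals mark the ETS motif GGAAGT.
Gimap8 (chr6:48647174-48647233, plus strand): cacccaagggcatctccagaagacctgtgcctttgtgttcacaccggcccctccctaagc
Gimap1 (chr6:48738987-48739046, plus strand): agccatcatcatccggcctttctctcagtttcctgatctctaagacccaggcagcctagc
Gimap5 (chr6:48746137-48746196, plus strand): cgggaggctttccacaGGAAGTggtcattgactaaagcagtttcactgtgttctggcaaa
Gimap6 (chr6:48708245-48708304, minus strand): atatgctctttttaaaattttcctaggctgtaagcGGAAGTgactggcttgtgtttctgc

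All 8 members had a RefSeq promoter, which covers 250 bases before and 50 after the start. The motif GGAAGT, in either orientation, was in the promoters of 4 of 8 members, namely Gimap1, Gimap5, Gimap6 and Gimap9, and in 23.8% of 32851 mouse promoters. In Gimap5 and Gimap6, the genes with the lowest and the highest fitted fold change, it lay 44 and 25 bases before the start. Gimap5 had another match 216 bases before the start, outside the bases shown. In Gimap1 and Gimap9 the motif lay after the start, also outside the bases shown. TGTGGT, the RUNX motif, was in 3 members (Gimap1, Gimap4 and Gimap7) and in 16.8% of all promoters. Among the other motifs read on both strands, the shorter GGAAG, which GGAAGT contains, was in 8 members and 71.4% of promoters, CCACCC (KLF) in 5 and 31.5%, GAAACT (IRF) in 4 and 15.8%, and CTTTGA (TCF/LEF) in 2 and 16.0%. GTAAACA (FOXO) and TGGGAA (Ikaros) were each in 1 member, Gimap3, against 3.65% and 25.6% of promoters. TATAAA, a core promoter element, was in Gimap6 and in 13.6% of promoters, and the RUNX variant TGAGGT was in 0 members and in 15.4%. Gimap8 was the 1 member with a start of the form seen in terminal oligopyrimidine mRNAs, a C followed by at least 4 pyrimidines. Its upstream start of the 2 annotated opened a run of 7 pyrimidines, and 2.51% of all promoters had such a start. These matches describe letters in a window and are not evidence of binding.

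In control cells the members covered a wide span of levels. Divided by the length of exon not shared with another gene on the same strand, the mean level in CPM per kilobase was 486 ± 24 for Gimap4 (SD, n = 3), 330 ± 4.5 for Gimap3 and 277 ± 19 for Gimap6. It was 133 ± 3.5 for Gimap8, 117 ± 3.5 for Gimap9 and 115 ± 8.8 for Gimap1. Gimap7 was at 62.0 ± 19 and Gimap5 at 37.6 ± 3.8. Control libraries of neighbouring genes in this order did not overlap, except Gimap9 (113 to 119) and Gimap1 (106 to 124), which could not be ordered. Gimap4, the most abundant member, ranked 113 of 12159 tested genes on this scale, and Gimap3 and Gimap6 ranked 142 and 152. Gimap5 ranked 1491. In cKO cells Gimap6 (327 ± 22) had a higher mean than Gimap3 (283 ± 29), their ranges (312 to 353 and 256 to 313) overlapping at their ends, and Gimap9 (136 ± 5.0) lay above Gimap8 (102 ± 7.3) without overlap. Both pairs stood in the opposite order in control cells.

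**Figure D1:**
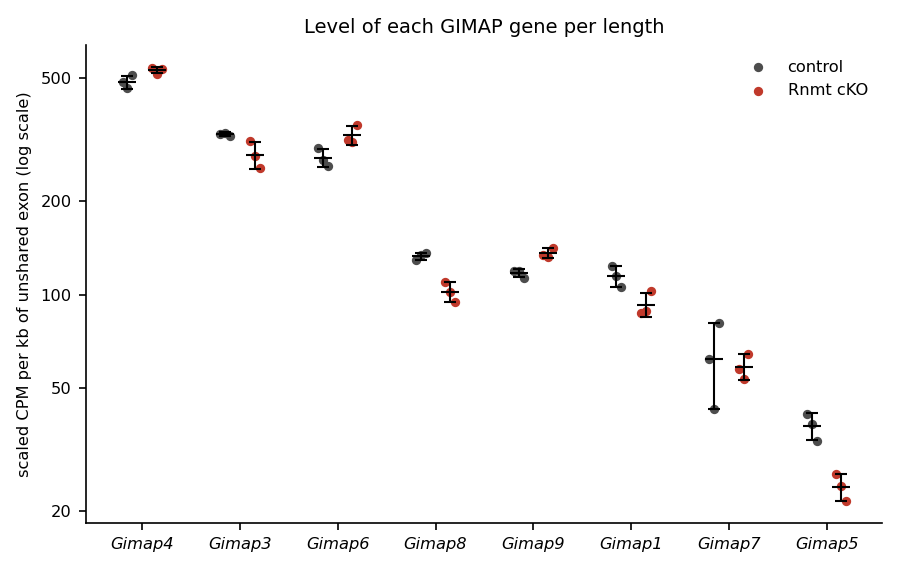
Scaled CPM per kilobase of unshared exon on a log axis for each GIMAP gene, ordered by the control mean. Points are libraries (grey control, red Rnmt cKO, 3 each) and black marks the mean ± SD. Levels run from 486 for Gimap4 to 37.6 for Gimap5 in control, and Gimap6 and Gimap3 as well as Gimap9 and Gimap8 change places in the cKO.

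The next comparison asked which members differ in level when Rnmt is deleted. Of the 8 members, 3 were called lower and 0 higher by the edgeR exact test at an adjusted p under 0.05, against 6.84% of all tested genes called lower and 8% called higher. Without adjustment, 2 members, Gimap6 and Gimap9, were higher at p under 0.05, and both the edgeR quasi-likelihood test and DESeq2 also called 0 members higher after adjustment and the same 2 before it. Control and cKO libraries did not overlap in 7 of 8 members, 4 of them lower and 3 higher, and did not overlap in 14.9% of all genes in the lower and 16.6% in the higher direction. The median log2 fold change of the members was -0.15, beside 0.01 over all tested genes. With no scaling beyond library size, the median of all genes was 0.14 and that of the members -0.03.

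Gimap5 (ENSMUSG00000043505, chr6:48746197-48754210), a lysosomal GTPase whose loss depletes peripheral T cells, showed the largest change. It was at 73.8, 68.9 and 60.4 CPM in the control libraries and at 47.2, 43.2 and 38.7 in the cKO libraries. Every cKO library lay below every control library. The log2 fold change was -0.65 ± 0.12 (SE, edgeR exact test, adjusted p = 1.3e-06), and the call held in all 17 alternative fits. It was counted 432 to 690 times per library.

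Gimap8 (ENSMUSG00000064262, chr6:48647234-48660875), the longest member, which carries several GTP-binding domains in 1 protein, was the other gene with a firm fall. Its control libraries were at 478, 495 and 504 CPM, and its cKO libraries at 405, 377 and 351 CPM. The groups did not overlap, with an SD of 13.1 CPM in control and 27.1 CPM in cKO libraries. Its log2 fold change was -0.38 ± 0.06 (SE, edgeR exact test, adjusted p = 0.0018), and the call was lost in 2 alternative fits, without scaling (adjusted p = 0.10) and with the replicate number as a block (0.093).

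Gimap1 (ENSMUSG00000090019, chr6:48739054-48743795), needed for the survival of mature lymphocytes, fell less firmly. Control libraries were at 161, 149 and 138 CPM and cKO libraries at 114, 115 and 133 CPM. The highest cKO library, cKO 3, lay just under the lowest control. The fitted log2 fold change was -0.31 ± 0.10 (SE, edgeR exact test, adjusted p = 0.026), and 9 of 17 alternative fits called it, over which its adjusted p ranged from 0.00011 to 0.18. Leaving out control 1, control 2, cKO 1 or cKO 2 removed the call (adjusted p from 0.12 to 0.18). Exons of Gimap1 share 198 of 1497 bases with Gm28053 on the same strand, and the antisense gene Gimap1os runs opposite to it.

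Gimap3 (ENSMUSG00000039264, chr6:48764464-48770851), a close relative of Gimap5, was at 852, 860 and 837 CPM in control and 808, 721 and 660 CPM in cKO libraries. The groups did not overlap, and the cKO libraries were spread over a wider range than the control libraries. The log2 fold change was -0.22 ± 0.09 (SE, edgeR exact test, adjusted p = 0.18), and 1 of 17 alternative fits called it.

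Gimap6 (ENSMUSG00000047867, chr6:48701582-48708225), a cytosolic member that binds the autophagy protein GABARAPL2, had the highest fitted fold change. Control libraries were at 951, 870 and 834 CPM and cKO libraries at 1011, 996 and 1127 CPM. All cKO libraries lay above all control libraries. Its log2 fold change was 0.24 ± 0.08 (SE, edgeR exact test, adjusted p = 0.13).

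Gimap9 (ENSMUSG00000051124, chr6:48676129-48679114) was at 165, 165 and 157 CPM in control and 185, 183 and 196 CPM in cKO libraries. Libraries within a group were close together, and the groups did not overlap. The fitted log2 fold change was 0.22 ± 0.04 (SE, edgeR exact test, adjusted p = 0.090). Gimap6 and Gimap9 were each called higher in 2 of 17 alternative fits, the one without scaling (log2 0.36 and 0.34) and the one with the no-gene share as a covariate (0.26 and 0.22).

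Gimap4 (ENSMUSG00000054435, chr6:48684549-48692060), which is induced during thymic maturation and affects the lifespan of T cells, was the third member higher in every cKO library. It was at 891, 851 and 939 CPM in control and 993, 948 and 987 CPM in cKO libraries. The lowest cKO library lay just above the highest control library. The log2 fold change was 0.13 ± 0.05 (SE, edgeR exact test, adjusted p = 0.46), and 0 of 17 alternative fits called it.

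Gimap7 (ENSMUSG00000043931, chr6:48718621-48724636) was at 73.5, 50.9 and 96.4 CPM in control and 68.4, 63.5 and 76.6 CPM in cKO libraries. The 3 cKO libraries lay inside the control range, whose coefficient of variation of 30.9% was the highest of the family. Its log2 fold change was -0.08 ± 0.28 (SE, edgeR exact test, adjusted p = 0.86), with an error larger than the value. Without scaling its log2 fold change was 0.04, and without control 3 it was 0.16.

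**Figure D2:**
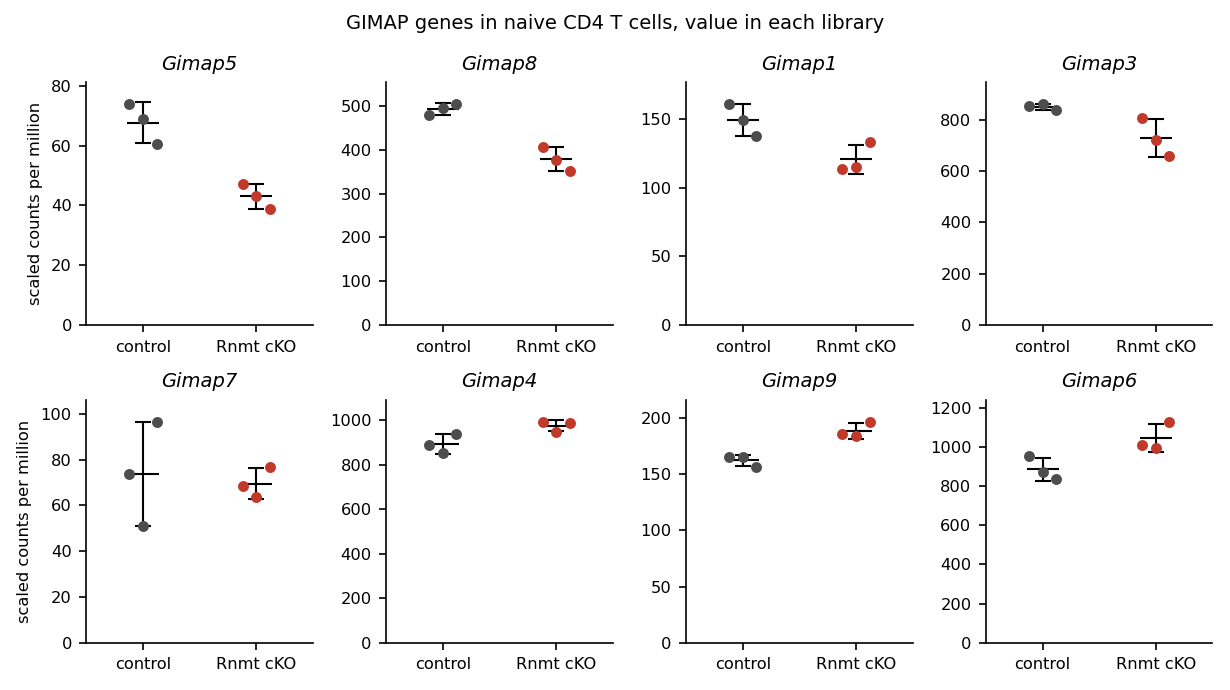
Scaled CPM of each GIMAP gene in each library, in panels ordered from the lowest to the highest fitted fold change. Points are libraries (grey control, red Rnmt cKO, 3 each) and black marks the mean ± SD, with every axis starting at 0. The groups are apart in all panels but that of Gimap7, whose control libraries run from 50.9 to 96.4.

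**Figure D3:**
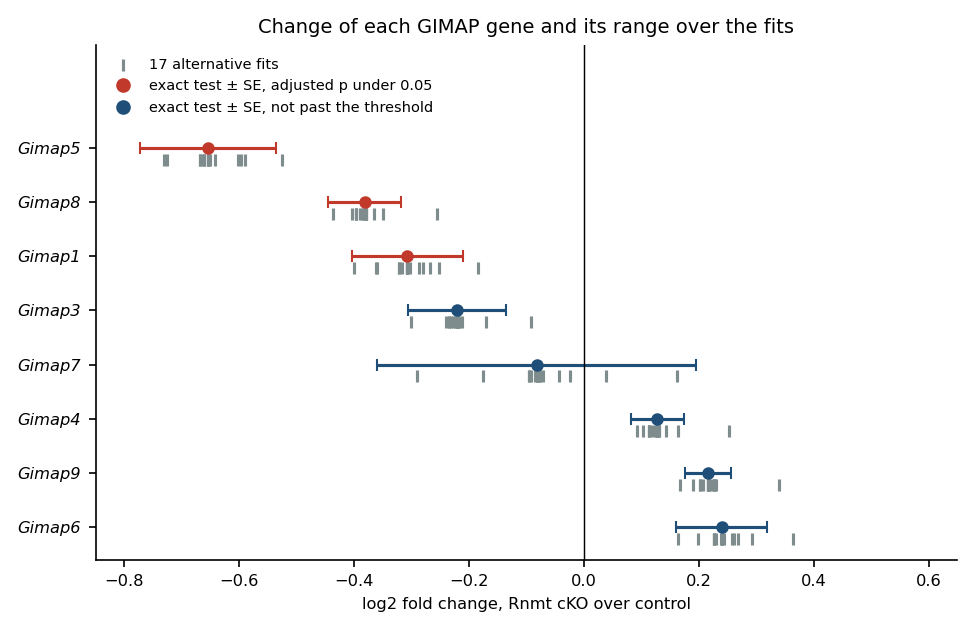
Log2 fold change of Rnmt cKO over control with its SE for each GIMAP gene by the exact test, with short grey marks for 17 alternative fits. Red points (Gimap5, Gimap8 and Gimap1) passed an adjusted p of 0.05. Apart from Gimap7, no gene has an alternative on the other side of 0.

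The share of reads in no gene differed between libraries, and control 1, control 2 and cKO 3 had under 43% of reads there while control 3, cKO 1 and cKO 2 had more. Within these 2 sets the log2 ratio of cKO over control was -0.88 and -0.42 for Gimap5, -0.47 and -0.36 for Gimap8, and -0.22 and -0.27 for Gimap1. It was -0.38 and -0.13 for Gimap3. It was 0.31 and 0.27 for Gimap6, 0.25 and 0.24 for Gimap9, and 0.18 and 0.05 for Gimap4. These 7 genes kept their sign in both sets, which was fixed in advance because their control and cKO libraries do not overlap. The split therefore says nothing about whether the no-gene share affects their direction. Gimap7, whose groups overlap, was at 0.30 in the first set and -0.55 in the second. Each set had a group with 1 library, so neither was tested.

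The family as a whole was compared next, with 1 value per library. Summed over the 8 members, control libraries were at 3645, 3510 and 3564 CPM and cKO libraries at 3631, 3448 and 3569 CPM. The groups overlapped almost entirely, with means of 3573 ± 68 (SD, n = 3) and 3549 ± 93 (exact two-sided permutation test, p = 0.80). With no scaling beyond library size the cKO sum was instead 285 CPM above control, with an exact permutation p of 0.10, the smallest that 3 against 3 libraries allow. The ratio of GIMAP counts to the counts of the 11 T cell receptor complex genes, which needs no scaling between libraries, was 0.747 ± 0.047 in control and 0.738 ± 0.066 in cKO libraries (exact permutation test, p = 0.90). Gimap4, Gimap6 and Gimap3 supply most of these counts, so the sum says little about the rarer members.

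The make-up of the family total was unlike in the 2 groups. Gimap6 held 24.8 ± 1.4% (SD, n = 3) of the GIMAP counts in control and 29.4 ± 1.9% in cKO libraries, with no overlap between the groups. Gimap4 held 25.0 ± 1.2% and 27.5 ± 0.15%, and Gimap9 4.54 ± 0.15% and 5.31 ± 0.20%. In the other direction, Gimap3 held 23.8 ± 0.62% in control and 20.5 ± 1.9% in cKO libraries, Gimap8 13.8 ± 0.58% and 10.6 ± 0.71%, Gimap1 4.17 ± 0.28% and 3.40 ± 0.30%, and Gimap5 1.89 ± 0.18% and 1.21 ± 0.11%. For these 7 members the groups did not overlap, and each had an exact two-sided permutation p of 0.10, the smallest possible here, so the design could not bring any of them under 0.05. Gimap7 held 2.06 ± 0.63% and 1.96 ± 0.17% with overlapping libraries (exact permutation p = 0.80). Shares within a library add up to a constant, so a rise of 1 member lowers the others, and they show unequal change without showing which member moved.

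**Figure D4:**
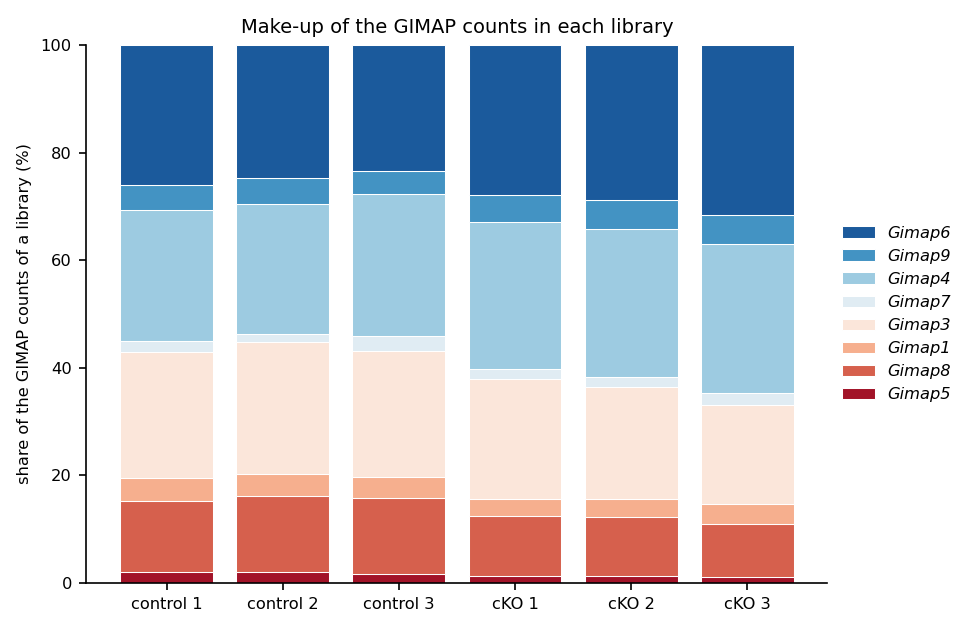
Share of the GIMAP counts of each library held by each gene, in percent, as stacked bars for 3 control and 3 Rnmt cKO libraries. Genes with a negative fitted fold change lie below those with a positive one (Gimap4, Gimap9 and Gimap6, in blue tones). The blue part, made of Gimap4, Gimap9 and Gimap6, is larger in each cKO library than in any control, while the Gimap8 and Gimap5 bands are narrower.

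Position along the chromosome was compared with direction. Gimap9, Gimap4 and Gimap6, the members with a positive fitted fold change, are neighbours that follow Gimap8 in the cluster. Gimap1, Gimap5 and Gimap3, all with a negative one, are neighbours at the far end, and Gimap8, also lower, stands at the near end. Gimap7, at -0.08 ± 0.28 (SE), lies between Gimap6 and Gimap1. The strand did not divide them, since the minus-strand genes Gimap6 and Gimap3 had opposite signs.

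Within the cluster and 500 kb on either side, the tables held 52 other genes, of which 17 could be tested. Over all tested genes, 6.84% were called lower and 8% higher, with a median log2 fold change of 0.01. Of the 17 neighbours, 3 were called lower and 0 higher, with a median of -0.07. The 3 were the pseudogene Zfp862-ps (-1.15 ± 0.27, SE, adjusted p = 0.0011), Lrrc61 (-0.55 ± 0.11, adjusted p = 0.0083) and AI854703 (-0.96 ± 0.24, adjusted p = 0.023), all by the edgeR exact test and all on the side of Gimap8. Zfp862-ps was called in 15 of 16 alternative fits, and lost its call with the replicate block (adjusted p = 0.066 by the edgeR quasi-likelihood test). Lrrc61 was called in 11 of 17, with an adjusted edgeR p of 0.066 without control 2, 0.051 without control 3, 0.081 without cKO 1, 0.077 without cKO 2, 0.097 with the block and 0.23 with reads of either strand. AI854703 was called in 8 of 16, with an adjusted edgeR p of 0.12 without control 1, 0.16 without control 2, 0.10 without cKO 1, 0.17 without cKO 2, 0.17 with the block, 0.064 in the quasi-likelihood test and 0.062 with no filter, and of 0.11 by DESeq2. Zfp862-ps and AI854703 had control means of 5.48 and 3.37 CPM and Lrrc61 of 15.8 CPM, far below the GIMAP genes. Krba1, Zfp467, Sspo, Repin1, Zfp775, 4833403J16Rik, Tmem176b, Tmem176a, Gpnmb, Malsu1, Igf2bp3 and Tra2a did not pass, with log2 fold changes from -0.49 (4833403J16Rik) to 1.33 (Sspo, at a control mean of 0.512 CPM).

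The remaining 2 neighbours overlap members. Gm28053, a readthrough gene with exons in Gimap7, Gimap1 and Gimap5, had 22 to 45 counts per library and a log2 fold change of 0.02 ± 0.23 (SE, edgeR exact test, adjusted p = 1.0). STAR leaves out reads that fall on exons of 2 genes, so reads in the 81 shared bases of Gimap7, 198 of Gimap1 and 153 of Gimap5 were not counted for either gene. Gimap1os, on the strand opposite Gimap1, was at 42.0, 41.5 and 37.4 CPM in control and 49.5, 44.6 and 50.6 CPM in cKO libraries, so the groups did not overlap. Its log2 fold change was 0.26 ± 0.08 (SE, edgeR exact test, adjusted p = 0.10), of opposite sign to that of Gimap1. By sequence, Gimap3 and Gimap5 share 190 stretches of 50 bases, 7.52% and 4.53% of their own. The authors' reads were paired and longer than 50 bases, so these shares do not give the part of reads without a unique place. Gimap1 shares 1107 of its 3116 stretches with transcripts of other genes, 1058 of them only with genes that overlap it at the same place in the genome. The other 49, 1.57% of its stretches, also occur in genes elsewhere, among them Ano10, Hhat and Ppp2r5a.

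**Figure D5:**
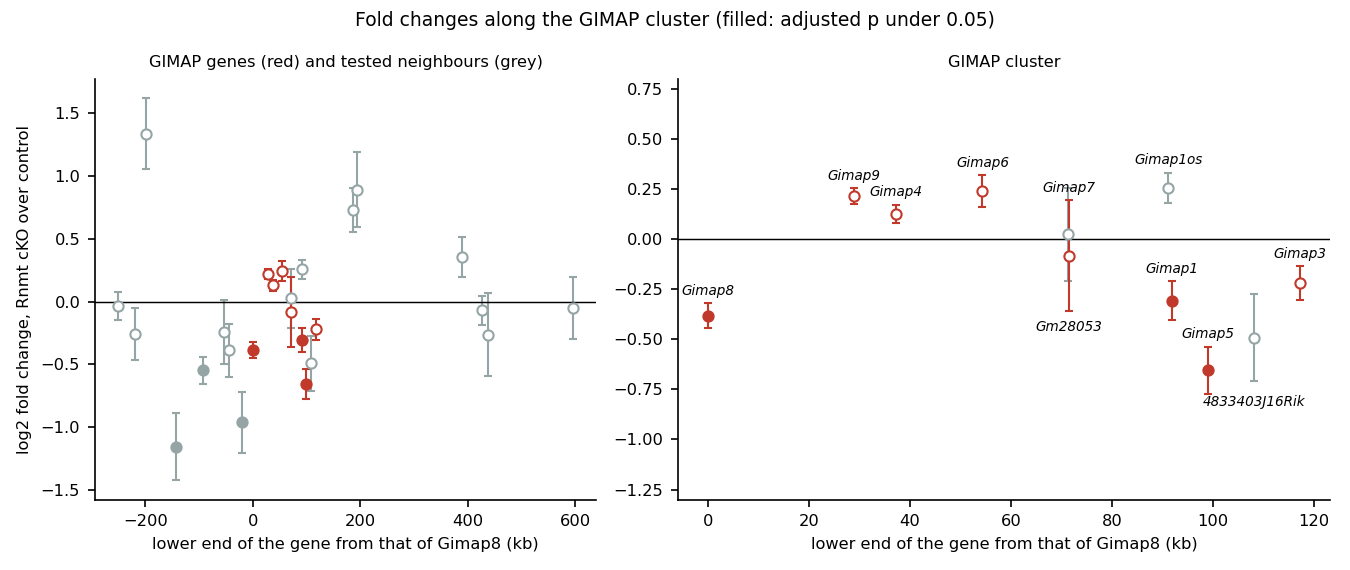
Log2 fold change with SE of tested genes against the distance of each gene's lower end from that of Gimap8, in kilobases, over the whole region (left) and the cluster (right). GIMAP genes are red and neighbours grey, and filled points passed an adjusted p of 0.05. Gimap9, Gimap4 and Gimap6 lie above 0 side by side. To their right come Gimap7, whose SE bar crosses 0, and then Gimap1, Gimap5 and Gimap3 below 0.

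Reads on the strand opposite the GIMAP genes were few. For the 7 members with no annotated gene on that strand, they came to 3.51, 3.18 and 2.06 per 1000 sense counts in control and 4.81, 4.94 and 4.75 in cKO libraries. Every cKO library was above every control library, with a ratio of the means of 1.66 (exact two-sided permutation test, p = 0.10, the smallest possible). Over 7089 other tested genes without an opposite gene the rates were 9.58 ± 1.7 in control and 10.7 ± 1.6 in cKO libraries (SD, n = 3, exact permutation p = 0.50). In Gimap5 the opposite-strand counts were 16, 31 and 18 in control and 37, 51 and 28 in cKO libraries, while its sense counts went the other way, from 628, 690 and 547 to 447, 512 and 432. The control and cKO ranges of these opposite-strand counts overlapped.

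Products known or reported to work with GIMAP proteins include the Bcl2 family, the GABARAP and LC3 autophagy proteins and Gsk3b. Of 13 of their genes tested, 5 were called higher and 0 lower, and their median log2 fold change was 0.15. Among all tested genes 8% were called higher and 6.84% lower, and the median was 0.01. With so few genes lower in general, 0 of 13 does not set these genes apart from the rest in that direction. Bcl2, which blocks apoptosis, rose from 293 ± 7.0 to 455 ± 45 CPM (log2 0.63 ± 0.08, SE, edgeR exact test, adjusted p = 7.3e-08). The survival factor Mcl1 rose by 0.28 ± 0.04 (adjusted p = 0.027 by the same test), the pro-apoptotic genes Bax and Bak1 by 0.58 ± 0.13 and 0.45 ± 0.14, and the autophagy gene Map1lc3b by 0.32 ± 0.09. Gabarapl2, encoding the partner of Gimap6, was at 28.8 ± 1.1 and 27.1 ± 6.1 CPM with overlapping groups.

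Genes of naïve T cell migration and survival moved in both directions. The transcription factor Klf2 rose from 277 ± 26 to 412 ± 42 CPM (SD, n = 3, edgeR exact test, adjusted p = 2.0e-05), and the egress receptor S1pr1 rose from 800 ± 17 to 987 ± 73 CPM (adjusted p = 0.026 by the same edgeR test). Il7r, the receptor for the survival cytokine IL-7, fell from 368 ± 27 to 190 ± 14 CPM (edgeR exact test, adjusted p = 2.4e-17). The transcription factor genes Satb1 (log2 0.06 ± 0.11, SE) and Tcf7 (0.19 ± 0.08) did not pass the test.

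The GBP, IRG and Mx proteins, interferon-induced GTPases of immune defence in another branch of the GTPases, had more genes called higher than lower. Of 20 tested, 8 were called higher and 2 lower (Gbp7 and Gbp10), with a median log2 fold change of 0.23. The shares over all tested genes were 8% higher and 6.84% lower, with a median of 0.01. By the edgeR exact test, the 4 with the highest mean counts had log2 fold changes of 0.44 ± 0.17 for Gbp4 (SE, adjusted p = 0.013), 0.21 ± 0.12 for Gbp9 (adjusted p = 0.24), 0.25 ± 0.09 for Ifi47 (adjusted p = 0.088) and 0.50 ± 0.09 for Igtp (adjusted p = 2.6e-05). The difference between the 2 families was not tested.

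In the T cell receptor list, 1 of 11 genes was called higher (Cd4, 669 ± 17 to 853 ± 49 CPM, edgeR exact test, adjusted p = 0.0049) and 1 lower (Cd3g, 469 ± 55 to 346 ± 59 CPM, adjusted p = 0.013). Among all tested genes 8% were called higher and 6.84% lower, so 1 of 11 in each direction is near that share. The median log2 fold change of this list was -0.04, beside 0.01 over all tested genes.

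Markers of other cells and states also moved between the groups. Their counts stand beside 8% of all tested genes called higher and 6.84% called lower. Genes of proliferating cells were higher in the cKO for 16 of 18 tested, with a summed level of 485 to 528 CPM in control and 880 to 971 in cKO libraries, and those of activated T cells for 6 of 8 (305 to 326 and 408 to 479). For B cells, which also express GIMAP genes, 5 of 8 markers were higher, with sums of 43.5 to 51.5 and 57.3 to 97.8 CPM. For myeloid cells 3 of 6 tested markers were higher, with sums of 8.18 to 10.2 and 18.5 to 40.8 CPM. Regulatory T cell markers were lower for 2 of 4 (150 to 193 and 116 to 146), both CD8 markers were lower (21.7 to 23.3 and 13.5 to 17.3), and for NK cells 1 of 2 tested markers was higher and 1 lower (33.6 to 42.4 and 21.6 to 28.4). Memory and effector T cell markers had 1 of 5 higher and 1 lower, with sums of 251 to 274 and 257 to 261 CPM. Endothelial cells, another source of GIMAP transcripts, had marker sums of 0.588 to 1.21 and 0.528 to 1.17 CPM, none of their 7 markers reached the filter and Emcn was at 0 in every library. Markers of double positive thymocytes summed to 11.0 to 13.3 and 11.1 to 12.8 CPM, with 1 of 2 tested higher and Ptcra at 0, and erythroid markers to 4.86 to 7.52 and 1.16 to 1.35 CPM, with both tested markers lower. The part of these changes in the GIMAP values was not tested.

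Among 8453 genes at 10 CPM or more outside the family, Vipas39, Mapk14, Klhl21 and B3galnt2 had patterns over the 6 libraries among the nearest to the mean GIMAP pattern. Their distances, in centred log2 CPM over 6 libraries, were 0.0438 to 0.0635, and their log2 fold changes were -0.15 to -0.10. The members themselves were farther from their own mean pattern, from 0.248 for Gimap3 to 0.703 for Gimap5, so that mean describes no single GIMAP gene closely.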

How the data were processed

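RNA was prepared with Trizol and libraries with a TruSeq kit after Ribozero Gold depletion, per the labels. The authors aligned reads to mm10 with STAR 2.5.2b and GENCODE vM12 basic annotation, and deposited raw counts per gene for either strand and for each strand alone. They also deposited a table of scaled signal per library with 4 columns of their own edgeR comparison, which were not used. The column taken as sense counts gave that deposited signal by 1 constant per library in 100% of 11221 genes, within 0.1%. The sense counts were analysed as deposited. Reads in no gene were left out of library sizes, at 31.8% to 47.9% of uniquely assigned reads.

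Genes above 1 CPM in at least 3 libraries were kept (12336), scaled by TMM and compared with the edgeR 4.0.16 exact test (R 4.3.3, tagwise dispersions by estimateDisp, Benjamini-Hochberg over all tested genes, threshold 0.05). This estimator was chosen among 3 that had been run after the members' values were seen, because it matched an earlier treatment of these data. The other 2 are given as alternatives. A standard error was computed from the libraries' log2 CPM with a prior count of 2. The alternatives were the edgeR quasi-likelihood test, DESeq2 1.42.0, 2 other scalings, 2 other filters, either-strand counts, a replicate block, the no-gene share as a covariate and each library left out. Single values were compared by exact permutation over libraries (scipy 1.17.1). Replicate libraries differed by more than sampling noise. Intervals of counting error are not given, and at 8873413 to 11277764 reads per library the spread between libraries limits the precision.

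Named genes were all members, every tested gene within 500 kb, the nearest patterns, Rnmt, and from each list the called genes where at most 5 were counted, otherwise those of highest mean. Markers in long lists are given as counts, and items withheld from this text are not reported here. Members and lists were chosen with earlier results of these data known. The 10 promoter motifs and the start pattern, the division of libraries at 43% of reads in no gene, the antisense comparison (genes with at least 60 antisense counts for the median ratio) and the search for shared stretches of 50 bases were set after members' values were seen. Coordinates and lengths came from GENCODE vM21 basic on the same build, which matched 46488 of 46983 identifiers. The fits were tested on simulated counts with known changes and the same dispersion for all genes. There the edgeR exact test recovered 25% of changes of 0.5 log2 and 97% of changes of 1 log2. Most changes of the smaller size were thus missed.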

Additional observations from a re-analysis of the deposited data

Results flagged for a closer look

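Reads on the strand opposite to the GIMAP genes lie outside the sense counts on which the comparisons rest. Over the 7 members with no gene on that strand, the cKO mean was 4.83 ± 0.097 opposite-strand counts per 1000 sense counts (SD, n = 3), and the control mean was 2.92 ± 0.76. The cKO value was higher in 3 of 3 libraries than in any control library, with an exact two-sided permutation p of 0.10, the smallest that 3 against 3 libraries allow. The ratio of cKO to control was above 1 for each of the 7 members, from 1.12 for Gimap7 to 2.56 for Gimap9, the latter resting on 0 to 8 opposite-strand counts per library. Among 769 other genes with at least 60 opposite-strand counts the median ratio was 1.18, with quartiles of 0.915 and 1.55. The members were not held to this minimum, so the 2 sets are not alike in counts. The rate is divided by sense counts, which differ between the groups. After scaling the mean sense level was lower in the cKO for Gimap3, Gimap5, Gimap7 and Gimap8, with ratios of 1.36, 2.39, 1.12 and 2.44. It was higher for Gimap4, Gimap6 and Gimap9, with ratios of 2.27, 1.53 and 2.56. The ratios of Gimap3, Gimap6 and Gimap7 lay within the quartiles of the 769 other genes. The part of the sense counts in these ratios was not tested, nor was any other cause.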

How the results depend on the processing

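Gimap5 kept its call in all 17 alternative fits, and Gimap8 in 15. Of the members, 1 was called lower both without scaling and with the replicate block, against 3, and 2 were called higher both without scaling and with the no-gene share as covariate, against 0. Deviations of same-numbered libraries from their group means correlated at -0.21, -0.02 and -0.35. Deviations within a group cancel out, so these values depend on each other and cannot show whether the libraries were paired. Gimap5 was the 1 member called with the block. Over all genes the counts of lower and higher calls were 844 and 987, 535 and 1938 without scaling, 276 and 431 with the block, and 1466 and 1696 with the covariate. The median log2 fold change of the members was -0.027 without scaling. With 1 library left out, members called lower numbered 2 to 3 and higher 0 to 0, lower calls over all genes 547 (without cKO 2) to 1285 (without cKO 3) and higher calls 643 to 1221, the members' median -0.25 (without control 2) to -0.035 (without control 3), the family sum difference -64.6 to 27.2 CPM and the difference in the ratio to T cell receptor counts -0.033 to 0.029. The sum difference was 285 CPM without scaling, against -23.7. The fold change of Gimap7 turned to 0.039 without scaling and 0.30 in libraries of low no-gene share, and ran from -0.29 to 0.16 (without control 3) with 1 library left out, where its share of family counts differed by -0.40 to 0.22 percentage points. The 2 dispersion estimators and the division of libraries by no-gene share were added after seeing the data. The 2 estimators gave 810 and 838 lower and 935 and 983 higher calls over all genes, with the same 3 members lower and 0 higher. The cause of these changes was not tested.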
